A study of Mus musculus with 10 samples.

Results

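The 44 genes described here encode the proteins that duplicate DNA in S phase, from the complexes that mark replication origins to the enzymes that supply nucleotides and rebuild chromatin behind the fork. They were chosen by name and role, 44 of the 18292 gene symbols listed in the count tables. Microglia, the resident macrophages of the brain, were profiled by droplet single-cell RNA-seq (3' tags with unique molecular identifiers, UMIs) in 10 libraries from C57BL/6 mice, 2 biological replicates in each of 5 groups. Adult microglia were sorted directly from the brains of mice at least 10 weeks old. Slice microglia came from organotypic brain slices prepared from pups at postnatal days 1 to 4 and kept in culture for 1 day, 1 week or 3 weeks, with several slices pooled where required. *In vitro* microglia were the floating cells of mixed glial cultures made from postnatal day 2 cortex, collected at day 22. All cells were sorted as DAPI negative, CD45 intermediate and CD11B high, and the labels name no transgene or drug for any group. Because the cultured cells were of neonatal origin and the adult cells were not, age at isolation and culture cannot be told apart in any comparison with adult microglia.

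DNA replication starts when the origin recognition complex, Cdc6 and Cdt1 load the Mcm2 to Mcm7 ring onto DNA in G1. The ring is turned into an active helicase by Cdc45, the GINS complex and Mcm10, and polymerases then copy the strands while held by the Pcna clamp. Many of these genes are transcribed under the control of E2F factors as a cell leaves quiescence, and adult microglia divide rarely in the healthy brain.

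Of 19637 barcodes, 19059 had at most 5% mitochondrial UMIs, at least 400 genes and no more than 30000 UMIs and were kept. Libraries held 61 to 3799 cells, from a stated input of about 1000 live cells each, and 385373 to 39689540 UMIs, with medians of 1858 to 13966 UMIs per cell, and both 1-week libraries were the smallest. The 10 microglia markers checked were present in every library, with summed levels of 35926 and 35567 CPM (UMIs scaled to a common library size) in adult, 18681 and 16099 at 3 weeks and 5432 and 4496 *in vitro*. The 8 neutrophil markers summed to 7351 and 21670.1 CPM at 1 day and 42211 and 942 at 1 week, against 1.03 to 7.62 in the other 6 libraries, and cells giving at least 2% of their UMIs to this list made up 13.1 and 10.8% of cells at 1 day and 16.2 and 1.64% at 1 week. The 6 monocyte markers summed to 148 and 358 CPM at 1 day and 913 and 0 at 1 week, against 0.606 to 6.52 in the other 6 libraries, and their part in the results at these times was not tested. The 4 erythroid markers summed to 1675 CPM in adult replicate 1 and 3321 in 1-day replicate 1, against at most 1.03 elsewhere. The 5 neuron markers summed to 56.3 and 25.6 CPM at 1 week, against 0.505 to 10.2 elsewhere. The part of these RNAs was not tested either. At least 2 UMIs of other cell types' markers were found in 88.4% of cells in 1-day replicate 1, in all cells of 1-day replicate 2 and 1-week replicate 1 and in 24.6% in 1-week replicate 2, far more cells than were neutrophil-marked, against 1.53 to 3.99% in the other 6 libraries, and the part of free RNA in the 1-day and 1-week values was not tested. No 2 libraries shared more than 23 cell barcodes. One adult and one 3-week library, replicate 1 of each, carry a different study label from the other 8.

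The UMIs of all cells in a library were added up and scaled by edgeR's TMM factors, and the values of replicates 1 and 2 are given in that order throughout. Because the reads are 3' tags, CPM values are not divided by gene length and are compared only for the same gene or list across libraries. In such sums, fewer cells transcribing a gene and less RNA per cell cannot be told apart. The 44 genes together summed to 593 and 738 CPM in the adult libraries, 1122 and 1545 at 1 day, 802 and 768 at 1 week, 1421 and 751 at 3 weeks and 763 and 838 *in vitro*. Both 1-day libraries and 1 of the 3-week libraries stood above all others, and the second 3-week library lay next to the adult ones. The group means were 666 ± 103 CPM in adult, 1333 ± 299 at 1 day, 785 ± 24.6 at 1 week, 1086 ± 474 at 3 weeks and 801 ± 52.9 *in vitro* (SD, n = 2). No test was run on these sums, since 2 libraries against 2 cannot give a two-sided exact permutation p under 0.333.

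**Figure D1:**
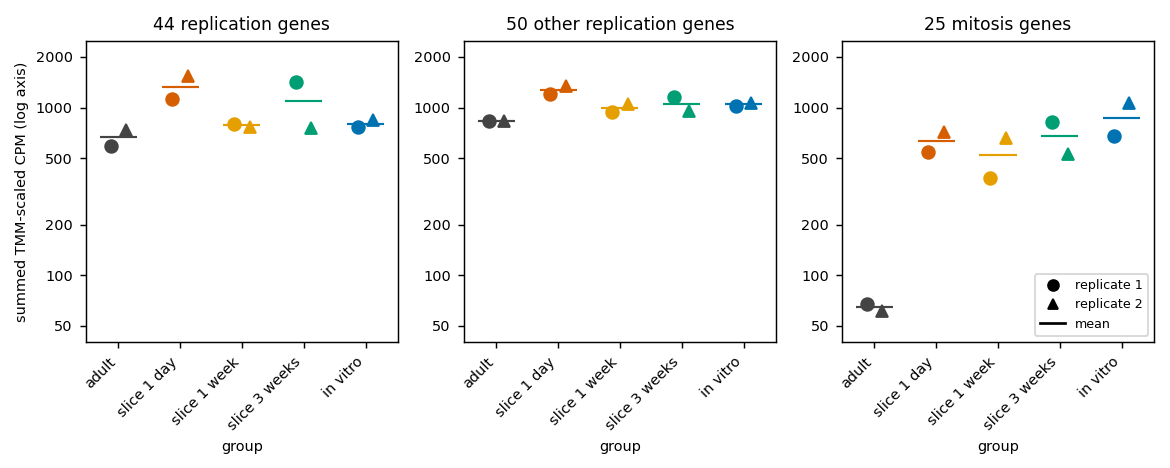
Summed TMM-scaled CPM (vertical log axis) of the 44 replication genes, of 50 other replication genes and of 25 mitosis genes in each library, by group (horizontal axis), with circles for replicate 1, triangles for replicate 2 and a line at the mean. The mitosis sum is at or under 67.8 CPM in both adult libraries and at least 379 in every culture library. The replication sums of adult and *in vitro* libraries, which are scaled CPM and not UMIs per cell, lie close together.

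Gene by gene, most of the set was called higher than in adult microglia at 1 day and at 3 weeks, fewer genes *in vitro* and few at 1 week. A gene was called when edgeR's quasi-likelihood test, fitted on all 10 libraries and 12157 genes, gave a Benjamini-Hochberg adjusted p under 0.05 and the fold exceeded 1.5, and all 44 genes passed the filter on low counts. At 1 day 31 of 44 were called higher than in adult and 0 lower, with 0 lower at an unadjusted p under 0.05 or by DESeq2, where 24.9% of all genes tested were called higher and 25.3% lower. At 3 weeks 28 were called higher and 0 lower (1 lower at an unadjusted p under 0.05 and 0 by DESeq2), beside 17.9% and 17.5% of all genes. *In vitro* microglia showed 19 higher and 3 lower, beside 22.4% and 28.5%, and at 1 week 5 were higher and 1 lower, beside 15.0% and 13.6%. At 1 week 12 of 44 were called higher by DESeq2, beside 17.5% of all genes by DESeq2. Another count, 12 higher at an unadjusted p under 0.05, was not set against all genes by the same criterion. By edgeR, the other 3 counts of higher genes were above the share of all genes.

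The median log2 fold change over the 44 genes was 1.59 at 1 day, 1.25 at 3 weeks, 0.79 at 1 week and 0.72 *in vitro*, where the medians over all genes tested were -0.06, -0.03, -0.08 and -0.11. Scaling by library size alone moved the all-gene median *in vitro* to -0.42 and that of the 44 genes to 0.41, so the distance between them stayed the same, and the calls became 12 higher and 5 lower *in vitro* and 4 and 3 at 1 week. These 4 comparisons share the 2 adult libraries. Leaving out adult replicate 1 lowered the higher calls to 10 *in vitro*, 11 at 3 weeks and 1 at 1 week, leaving out *in vitro* replicate 2 lowered the *in vitro* count to 11, and leaving out 1-day replicate 2 lowered the 1-day count to 20. Without either 1-week library the 1-week count was 1 (replicate 1 left out) and 3 (replicate 2 left out), and without either 3-week library it was 9. In the neutrophil-marked cells themselves the 44 genes held 338 and 1569 CPM at 1 day, against 1209 and 1572 in the other cells, and 1341 against 658 in 1-week replicate 1 (CPM without TMM factors). Without these cells, the counts were 31 at 1 day and 2 at 1 week.

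The 4 comparisons share both adult libraries, so that a gene called in several of them was not called independently. The 5 genes called higher at 1 week were *Mcm10*, *Lig1*, *Chaf1a*, *Uhrf1* and *E2f1*. Of these, *E2f1* kept its 1-week call under every alternative, and the other 4 lost theirs without the neutrophil-marked cells, with thinned cells, without adult replicate 1 and without 1-week replicate 1. Of the 44 genes, 11 were called higher in no comparison with adult, of which 3 (*Slbp*, *Pold2* and *Prim2*) were called lower in at least 1 and 8 (*Mcm3*, *Pola2*, *Pold1*, *Rfc2*, *Rpa1*, *Rpa2*, *Rpa3* and *Fen1*) were called in neither direction.

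**Figure D2:**
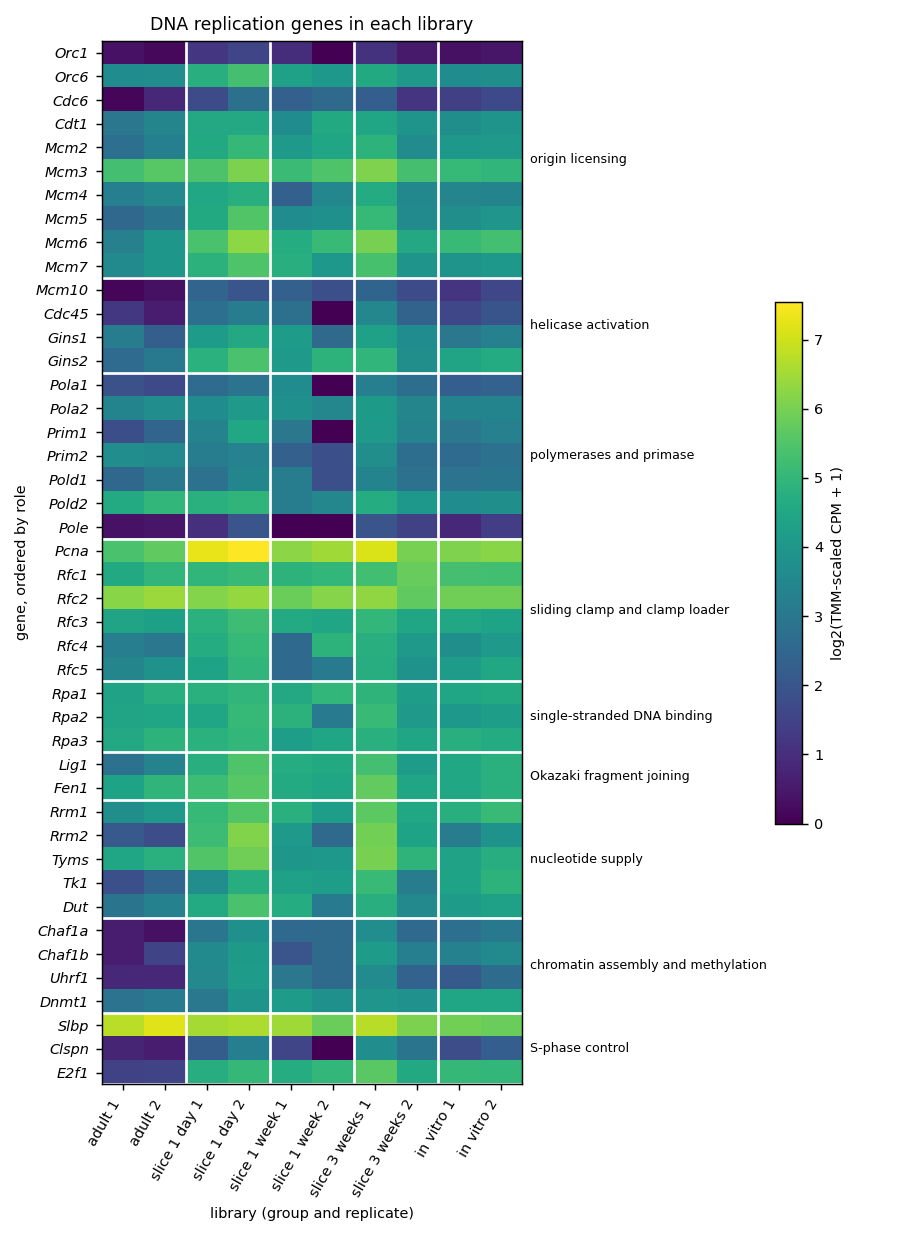
Level of each of the 44 genes (rows, ordered by role) in each library (columns) as log2(TMM-scaled CPM + 1), from dark (0) to bright. The adult columns are darkest for *Chaf1a*, *Uhrf1*, *Mcm10* and *E2f1*, while *Slbp* is brightest there and *Rfc2* and the *Rpa* rows keep a similar shade across groups.

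**Figure D3:**
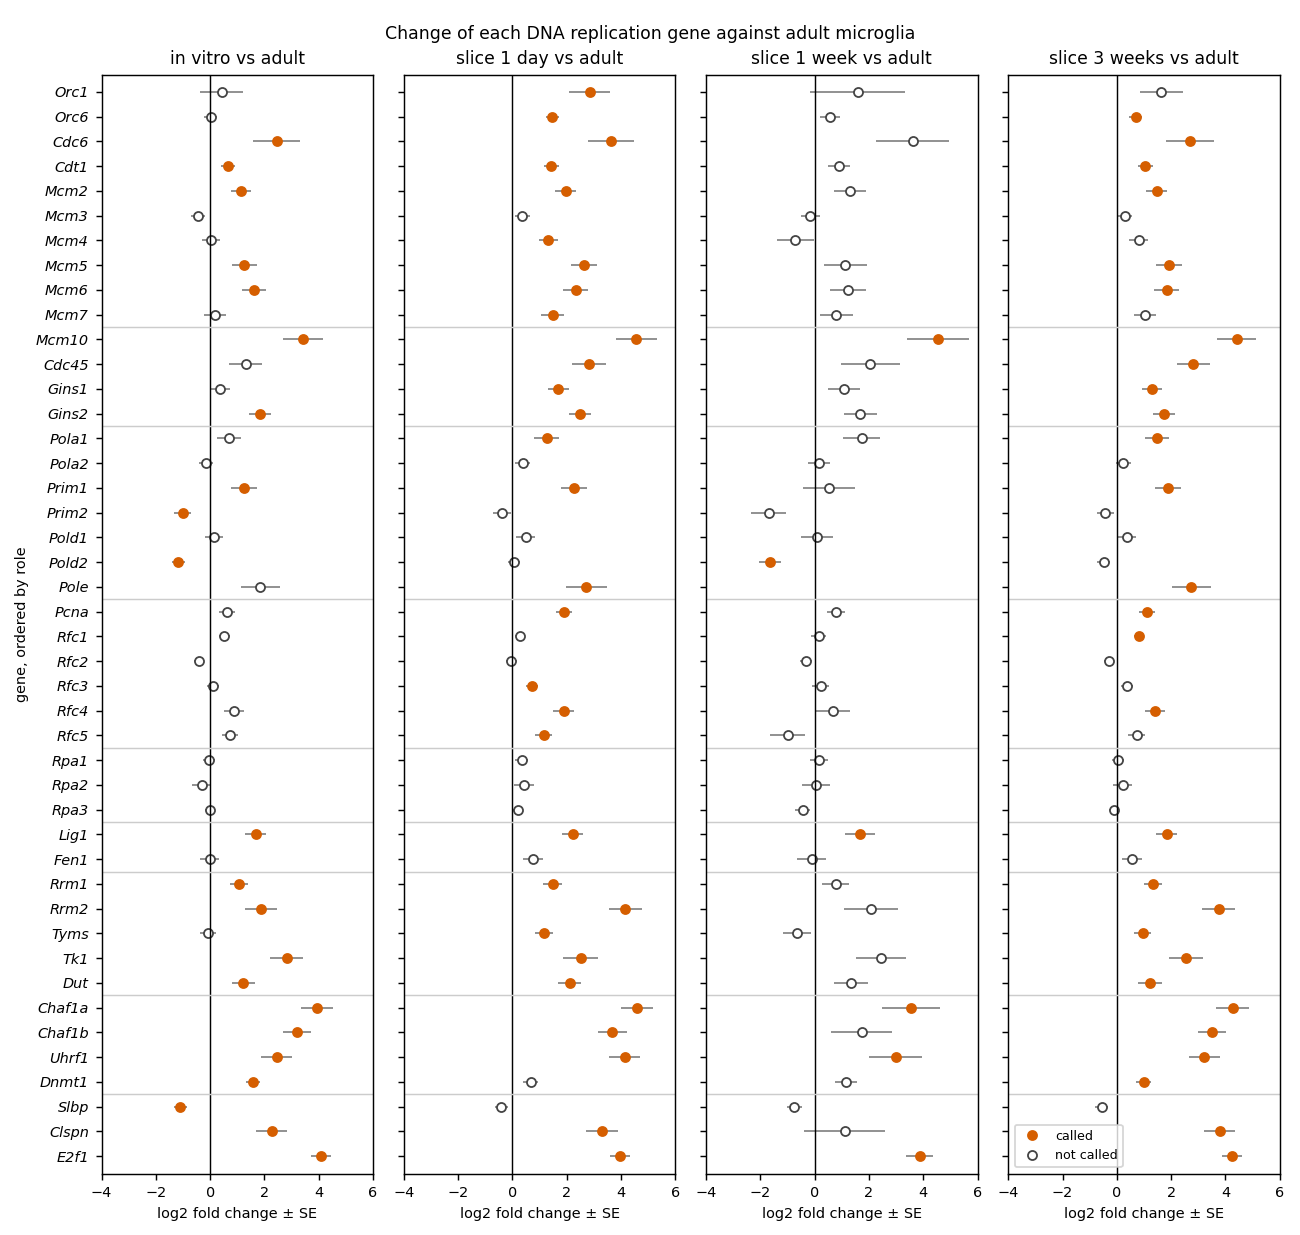
Log2 fold change against adult (horizontal axis, with its standard error as a bar) of each gene in 4 comparisons, with filled points for called genes. *Pole* is left out at 1 week, where both libraries hold 0 UMIs of it. Rows of helicase activation, nucleotide supply and chromatin assembly genes lie to the right of 0 at 1 day and 3 weeks, and the *Rpa* rows lie near 0 in every panel.

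Promoters from RefSeq (mouse GRCm38.p6, 250 bases before to 50 bases after the annotated start) were found for 38 of the 44 genes, and were searched on both strands for the letters TTTCCCGC, TTTCGCGC, TTTGCCGC and TTTGGCGC, spellings of the site bound by E2F factors. At least 1 of these was present in 14 of 38 genes (36.8%), against 2.6% of the 27025 genes with a promoter entry. The shorter CCAAT box, whose letters are not contained in these spellings, was present in 65.8% and 41.1%. Of the 17 genes with an entry that were called higher in 3 or 4 comparisons, 7 held an E2F spelling, as did 5 of 12 called in 1 or 2 and 2 of 9 called in none. Those 2 were *Mcm3* and *Pold1*. Of the 5 called higher in all 4 comparisons, *Lig1* and *Uhrf1* held a spelling and *Mcm10*, *Chaf1a* and *E2f1* did not. A match is a run of letters only, and whether a factor binds there was not measured. The 250 bases upstream of the start are printed for 4 genes of origin licensing that hold the letters in that stretch, with *Rpa1*, which was called in no comparison with adult and holds none, for contrast. Capitals mark the E2F spellings, overlapping ones merged, and each sequence is written 5' to 3' on the gene's own strand. The *Mcm5* stretch is chr8:75109259-75109508 (plus strand), *Mcm6* chr1:128359706-128359955 (minus strand), *Orc1* chr4:108579204-108579453 (plus strand), *Cdc6* chr11:98907901-98908150 (plus strand) and *Rpa1* chr11:75348384-75348633 (minus strand).
Mcm5: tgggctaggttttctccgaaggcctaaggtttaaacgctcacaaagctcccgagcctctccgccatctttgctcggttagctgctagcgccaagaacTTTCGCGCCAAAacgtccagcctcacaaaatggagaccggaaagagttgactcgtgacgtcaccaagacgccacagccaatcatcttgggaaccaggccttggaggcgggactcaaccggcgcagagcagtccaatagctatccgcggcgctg
Mcm6: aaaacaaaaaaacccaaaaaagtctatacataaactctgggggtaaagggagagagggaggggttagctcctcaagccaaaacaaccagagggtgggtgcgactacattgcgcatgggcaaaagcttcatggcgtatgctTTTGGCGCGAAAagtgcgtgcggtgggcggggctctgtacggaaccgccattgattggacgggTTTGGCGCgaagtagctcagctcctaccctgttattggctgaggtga
Orc1: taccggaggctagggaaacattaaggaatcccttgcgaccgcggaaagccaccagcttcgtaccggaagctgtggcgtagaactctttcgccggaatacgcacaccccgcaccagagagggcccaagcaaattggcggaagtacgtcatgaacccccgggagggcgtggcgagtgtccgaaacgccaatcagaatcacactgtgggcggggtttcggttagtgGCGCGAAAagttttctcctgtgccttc
Cdc6: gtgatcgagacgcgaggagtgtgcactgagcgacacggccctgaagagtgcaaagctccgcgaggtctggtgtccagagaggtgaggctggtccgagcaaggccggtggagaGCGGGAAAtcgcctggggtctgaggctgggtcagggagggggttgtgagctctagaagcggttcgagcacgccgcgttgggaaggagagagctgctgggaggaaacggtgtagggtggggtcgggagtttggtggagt
Rpa1: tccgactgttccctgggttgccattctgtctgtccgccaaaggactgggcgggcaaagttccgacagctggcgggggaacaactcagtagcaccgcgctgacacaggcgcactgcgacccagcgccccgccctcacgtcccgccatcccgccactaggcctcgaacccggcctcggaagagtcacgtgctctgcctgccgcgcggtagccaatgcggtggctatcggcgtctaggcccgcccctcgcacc

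Of the 10 origin licensing genes, 9 were called higher at 1 day, 6 at 3 weeks and 5 *in vitro*, and 0 at 1 week (2 higher at an unadjusted p under 0.05 and 2 by DESeq2). *Mcm6*, a subunit of the helicase ring, was at 8.86 and 15.1 CPM in the adult libraries, 40.9 and 75.2 at 1 day, 24.7 and 33.3 at 1 week, 62.4 and 22.7 at 3 weeks and 33.7 and 38.6 *in vitro*. All 8 culture libraries were above both adult ones, and the log2 fold change was 2.33 ± 0.46 (SE) at 1 day (edgeR adjusted p = 0.00165) and 1.62 ± 0.45 *in vitro* (edgeR adjusted p = 0.0101). *Mcm3*, another subunit of the same ring, was at 37.8 and 47.3 CPM in the adult libraries, 42.7 and 65.5 at 1 day, 34.6 and 43.5 at 1 week, 66.5 and 38.9 at 3 weeks and 32.4 and 30.4 *in vitro*. Its adult values lay inside the range of the culture libraries and it was not called against adult, with log2 fold changes of -0.43 to 0.37. The subunits of 1 ring thus moved by different amounts on the log2 scale at 1 day, from 0.37 for *Mcm3* through 1.32 for *Mcm4*, 1.48 for *Mcm7* and 1.97 for *Mcm2* to 2.33 for *Mcm6* and 2.62 for *Mcm5*, differences between genes that were not tested. *In vitro*, *Mcm2*, *Mcm5* and *Mcm6* were called higher while *Mcm4* (0.02 ± 0.34 SE) and *Mcm7* (0.19 ± 0.41 SE) were not.

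Among the loading factors, *Cdc6*, an ATPase that recruits the ring, was counted at 1 and 6 UMIs in the adult libraries against 9 and 57 at 1 day, 4 and 2 at 1 week, 29 and 27 at 3 weeks and 53 and 77 *in vitro*. Its log2 fold change was 3.63 ± 0.86 (SE) at 1 day (edgeR adjusted p = 0.00484). *Cdt1*, its partner in loading, was called higher *in vitro*, at 1 day and at 3 weeks, by 0.67, 1.44 and 1.05 on the log2 scale, but its *in vitro* call was lost under 9 alternatives, among them the replicate block, the study label as covariate and library size alone. The origin recognition subunit gene *Orc1* was at 0.293 and 0.129 CPM in the adult libraries, 1.31 and 1.96 at 1 day, 0.988 and 0 at 1 week, 1.16 and 0.466 at 3 weeks and 0.257 and 0.365 *in vitro*, low throughout, and was called higher at 1 day alone among the comparisons with adult. *Orc6*, a further subunit gene, was at 11.8 and 12 CPM in the adult libraries, 25.4 and 38.9 at 1 day, 18.8 and 15.4 at 1 week, 23 and 15.9 at 3 weeks and 11.6 and 12.4 *in vitro*. Its 1-day libraries were the highest, the *in vitro* ones overlapped the adult ones, and it was called higher at 1 day (1.46 ± 0.24 SE, edgeR adjusted p = 0.000534) and 3 weeks (0.69 ± 0.24 SE, edgeR adjusted p = 0.0395). The 3-week call of *Orc6* was lost under 7 alternatives, among them library size alone, the replicate block and leaving out either adult library or 3-week replicate 1.

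All 4 helicase activation genes were called higher at 1 day and at 3 weeks, 2 of 4 *in vitro* (*Mcm10* and *Gins2*) and 1 at 1 week (*Mcm10*). *Gins2*, a subunit of the GINS complex that holds the helicase together, was at 5.27 and 7.34 CPM in the adult libraries, 27.5 and 40.7 at 1 day, 15.8 and 28.1 at 1 week, 30.3 and 12.3 at 3 weeks and 20.0 and 24.1 *in vitro*. Every culture library exceeded both adult libraries, and the change was 2.48 ± 0.41 (log2, SE) at 1 day (edgeR adjusted p = 0.000552) and 1.83 ± 0.40 *in vitro* (edgeR adjusted p = 0.00264). *Gins1*, its partner, was at 8.06 and 3.86 CPM in the adult libraries, 16.5 and 22.6 at 1 day, 16.8 and 5.12 at 1 week, 18.9 and 11.7 at 3 weeks and 6.97 and 8.81 *in vitro*. One adult library lay among the *in vitro* ones, and the *in vitro* change of 0.36 ± 0.37 (log2, SE) missed the threshold. *Mcm10*, which helps start the helicase, was near absent from adult microglia, with 1 and 2 UMIs against 17 and 29 at 1 day, 4 and 1 at 1 week, 34 and 50 at 3 weeks and 37 and 73 *in vitro*. From the pooled counts its CPM was 22.3 times the adult one at 1 day (95% counting interval 7.16 to 112), 17.8 times at 3 weeks (5.89 to 88.1) and 9.55 times *in vitro* (3.18 to 47), intervals that cover counting error only. *Cdc45*, the remaining helicase partner, was at 1.32 and 0.515 CPM in the adult libraries, 5.77 and 8.04 at 1 day, 5.93 and 0 at 1 week, 10.3 and 4.29 at 3 weeks and 2.02 and 2.89 *in vitro*. It rose at 1 day (2.82 ± 0.61 SE, edgeR adjusted p = 0.00292) and at 3 weeks (2.82 ± 0.60 SE, edgeR adjusted p = 0.00406).

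The 7 polymerase and primase genes were split. *Pola1*, *Prim1* and *Pole*, catalytic subunits of polymerase alpha, primase and polymerase epsilon, were called higher at 1 day and 3 weeks, and *Prim1* also *in vitro* (1.23 ± 0.47 SE, edgeR adjusted p = 0.0458). That *in vitro* call of *Prim1* was lost under 7 alternatives, among them the replicate block, the study label as covariate and leaving out either *in vitro* library, and the 1-day call of *Pola1* under 9, among them library size alone and leaving out either library of the adult or 1-day group. *Pole* was counted at 0 UMIs in both 1-week libraries, where 3 UMIs would be 2.96 and 7.68 CPM, above the adult level of 0.293 and 0.386 CPM, so no fold is given there. *Pold2*, an accessory subunit of polymerase delta, was at 23.7 and 31.2 CPM in the adult libraries, 26.7 and 29.8 at 1 day, 7.91 and 10.2 at 1 week, 24.3 and 15.1 at 3 weeks and 11.7 and 12.6 *in vitro*. Both *in vitro* and both 1-week libraries were below every adult and 1-day library, and it was called lower *in vitro* (-1.17 ± 0.23 SE, edgeR adjusted p = 0.00134) and at 1 week (-1.66 ± 0.40 SE, edgeR adjusted p = 0.0112). *Prim2*, the regulatory primase subunit, was called lower *in vitro* (5.2 and 6.2 CPM against 11.9 and 11.1 in adult, -1.01 ± 0.31 SE, edgeR adjusted p = 0.0185), a call lost with the study label as covariate and without any 1 of the 4 libraries compared. *Pola2*, an accessory subunit of polymerase alpha, was at 9.6 and 12.1 CPM in the adult libraries, 11.8 and 15.8 at 1 day, 12.8 and 10.2 at 1 week, 16.2 and 9.74 at 3 weeks and 9.51 and 9.65 *in vitro*, and its adult and culture values overlapped. With *Pold1*, the catalytic subunit of polymerase delta, it was called in none of the 4 comparisons.

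The sliding clamp gene *Pcna* was at 40.9 and 51.3 CPM in the adult libraries, 158 and 186 at 1 day, 74.1 and 87 at 1 week, 138 and 63.5 at 3 weeks and 67.7 and 72.9 *in vitro*. All culture libraries were above both adult ones, the 1-day libraries most of all, and the change was 1.90 ± 0.30 (log2, SE) at 1 day (edgeR adjusted p = 0.000409), 1.12 ± 0.29 at 3 weeks (edgeR adjusted p = 0.012) and 0.61 ± 0.29 *in vitro*, where it missed the threshold (edgeR adjusted p = 0.0965). *Rfc2*, a subunit of the complex that loads the clamp, was at 72.9 and 83.6 CPM in the adult libraries, 70.5 and 81.3 at 1 day, 57.3 and 71.6 at 1 week, 77.2 and 50.6 at 3 weeks and 58.6 and 58.8 *in vitro*. Both *in vitro* and both 1-week libraries lay below both adult ones, while the 1-day and 3-week values overlapped the adult ones, and *Rfc2* was called in no comparison. *In vitro*, 0 of the 6 clamp and loader genes were called higher by edgeR (3 at an unadjusted p under 0.05 and 2 by DESeq2), against 4 at 1 day and 3 at 3 weeks. Of the other loader subunits, *Rfc4* was called at 1 day and 3 weeks, *Rfc3* and *Rfc5* at 1 day, and *Rfc1* at 3 weeks (0.81 ± 0.19 SE, edgeR adjusted p = 0.00777).

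The 3 *Rpa* genes encode the heterotrimer that coats single-stranded DNA at forks and at sites of repair. *Rpa1* was at 19.3 and 25.9 CPM in the adult libraries, 26.5 and 30.4 at 1 day, 22.7 and 30.7 at 1 week, 28.8 and 17.9 at 3 weeks and 21 and 22.8 *in vitro*. *Rpa3* was at 22.5 and 28.2 CPM in the adult libraries, 27 and 30.7 at 1 day, 17.8 and 20.5 at 1 week, 26.8 and 20.5 at 3 weeks and 26.1 and 24.2 *in vitro*. For both genes the adult values lay within the range of the cultures. Log2 fold changes of the 3 genes against adult ran from -0.31 to -0.00 *in vitro*, 0.20 to 0.43 at 1 day, -0.44 to 0.18 at 1 week and -0.10 to 0.22 at 3 weeks. edgeR called 0 of 3 in each of these, as did DESeq2, and 0 had an unadjusted p under 0.05.

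The pair that finishes Okazaki fragments, the short pieces of the lagging strand, differed from each other. *Lig1*, the ligase, was at 6.01 and 9.4 CPM in the adult libraries, 25.4 and 43.4 at 1 day, 24.7 and 23 at 1 week, 38.2 and 17 at 3 weeks and 22 and 26.5 *in vitro*. All culture values were above both adult ones and it was called higher in all 4 comparisons, from 1.68 ± 0.56 (log2, SE) at 1 week (edgeR adjusted p = 0.0441) to 2.22 ± 0.40 at 1 day (edgeR adjusted p = 0.000897). The 1-week call of *Lig1* was lost under 8 alternatives, among them scaling by library size alone, leaving out the neutrophil-marked cells and leaving out either 1-week library. *Fen1*, the flap endonuclease, was at 19.9 and 29.5 CPM in the adult libraries, 35.6 and 46.8 at 1 day, 23.7 and 20.5 at 1 week, 52.8 and 20.9 at 3 weeks and 21.7 and 26.6 *in vitro*. Adult replicate 2 was above both *in vitro* libraries, and *Fen1* was not called in any comparison with adult.

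All 5 nucleotide supply genes were called higher at 1 day and at 3 weeks and 4 *in vitro*, with 0 at 1 week (1 at an unadjusted p under 0.05 and 2 by DESeq2). *Rrm1*, the large subunit of ribonucleotide reductase, was at 12.2 and 15.8 CPM in the adult libraries, 32.5 and 44.2 at 1 day, 26.7 and 17.9 at 1 week, 49 and 22.2 at 3 weeks and 25.7 and 33 *in vitro*. All cultures were above adult, by 1.48 ± 0.34 (log2, SE) at 1 day (edgeR adjusted p = 0.00423). *Rrm2*, the small subunit, which limits the enzyme in S phase, was at 3.3 and 2.45 CPM in the adult libraries, 35.1 and 68.8 at 1 day, 15.8 and 5.12 at 1 week, 60.8 and 19.8 at 3 weeks and 7.93 and 13.6 *in vitro*. Each 1-day and 3-week library was above every other, and the change was 4.16 ± 0.60 (log2, SE) at 1 day (edgeR adjusted p = 0.000226), 3.74 ± 0.59 at 3 weeks (edgeR adjusted p = 0.000731) and 1.87 ± 0.58 *in vitro* (edgeR adjusted p = 0.0193). *Tyms*, thymidylate synthase, was at 20.8 and 26.4 CPM in the adult libraries, 44.3 and 59.8 at 1 day, 14.8 and 15.4 at 1 week, 63.3 and 29.2 at 3 weeks and 19.5 and 24.9 *in vitro*. Its *in vitro* and 1-week values did not exceed the higher adult value, and it was called higher at 1 day (1.16) and 3 weeks (0.96). Its 3-week call was lost under 6 alternatives, among them library size alone and leaving out either adult library, and its change was 0.36 without 3-week replicate 1. *Tk1*, the thymidine salvage kinase, rose *in vitro*, at 1 day and at 3 weeks by 2.82, 2.51 and 2.53 (log2), as did *Dut*, which keeps uracil out of DNA, by 1.23, 2.10 and 1.22. The calls lost under 5 or more alternatives here were those of *Dut* at 3 weeks (7), *Tyms* at 3 weeks, and *Dut* and *Rrm1* *in vitro* (5 each), each of them also with library size alone.

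Of the 4 chromatin assembly and methylation genes, 4 were called higher *in vitro*, 3 at 1 day, 4 at 3 weeks and 2 at 1 week. *Chaf1a*, the large subunit of the chromatin assembly factor that loads histones on new DNA, was counted at 7 and 2 UMIs in adult and was at 0.513 and 0.258 CPM in the adult libraries, 6.81 and 12.8 at 1 day, 4.94 and 5.12 at 1 week, 11.9 and 5.03 at 3 weeks and 5.72 and 7.3 *in vitro*. Each culture library was above both adult ones, by 4.59 ± 0.60 (log2, SE) at 1 day (edgeR adjusted p = 0.000128) and 3.94 ± 0.59 *in vitro* (edgeR adjusted p = 0.000247), although the 1-week libraries held only 5 and 2 UMIs. *Chaf1b*, its partner, was at 0.513 and 1.93 CPM in the adult libraries, 11 and 16.4 at 1 day, 2.96 and 5.12 at 1 week, 16.6 and 8.62 at 3 weeks and 8.9 and 11 *in vitro*, and was called at 1 day, at 3 weeks and *in vitro*. *Uhrf1*, which recruits the maintenance methyltransferase to new DNA, was at 0.806 and 0.773 CPM in the adult libraries, 10.7 and 17 at 1 day, 6.92 and 5.12 at 1 week, 11.5 and 4.19 at 3 weeks and 3.37 and 5.36 *in vitro*. Its log2 fold change was 4.15 ± 0.57 (SE) at 1 day (edgeR adjusted p = 0.000175) and 2.45 ± 0.57 *in vitro* (edgeR adjusted p = 0.00405). *Dnmt1*, that methyltransferase, was at 6.3 and 7.73 CPM in the adult libraries, 7.08 and 14 at 1 day, 16.8 and 12.8 at 1 week, 14.4 and 13.2 at 3 weeks and 20.7 and 20.7 *in vitro*. Here the *in vitro* libraries were the highest, with a change of 1.57 ± 0.26 (log2, SE, edgeR adjusted p = 0.000515), and *Dnmt1* was the only one of the 44 genes called higher *in vitro* against adult and not called higher at 1 day.

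Among the S-phase control genes, *E2f1*, a transcription factor that drives many of the others, gave the smallest adjusted p of the set in every comparison with adult. It was at 1.76 and 1.93 CPM in the adult libraries, 24.9 and 31.8 at 1 day, 24.7 and 30.7 at 1 week, 47.7 and 22.8 at 3 weeks and 31.5 and 31 *in vitro*, from 24 and 15 UMIs in adult to 982 and 1105 *in vitro*. All 8 culture libraries were more than 10-fold above both adult ones, and the log2 fold change was 4.09 ± 0.37 (SE) *in vitro* (edgeR adjusted p = 7.13e-06), 3.96 ± 0.37 at 1 day (edgeR adjusted p = 1.66e-05), 3.86 ± 0.50 at 1 week (edgeR adjusted p = 0.000346) and 4.24 ± 0.37 at 3 weeks (edgeR adjusted p = 2.13e-05). *Slbp*, which binds the stem-loop at the end of histone mRNAs, went the other way, at 108 and 143 CPM in the adult libraries, 91.2 and 98 at 1 day, 87 and 56.3 at 1 week, 106 and 65.4 at 3 weeks and 60.7 and 55.8 *in vitro*. It was called lower *in vitro* (-1.11 ± 0.24 SE, edgeR adjusted p = 0.00254), and it made up 18.2% and 19.4% of the summed CPM of the 44 genes in adult but 7.95% and 6.66% *in vitro*. *Clspn*, the adaptor of the replication checkpoint, was at 0.732 and 0.515 CPM in the adult libraries, 3.67 and 8.55 at 1 day, 1.98 and 0 at 1 week, 12 and 6.52 at 3 weeks and 2.44 and 3.82 *in vitro*. It was called higher at 1 day, at 3 weeks (3.79 ± 0.56 SE, edgeR adjusted p = 0.00052) and *in vitro*, and 1-week replicate 2 held 0 UMIs of it.

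The 3-week libraries differed in the size of the rise. The 44 genes summed to 1421 CPM in replicate 1, which shares its study label with adult replicate 1, and to 751 in replicate 2. Within the labels, single-gene ratios were formed for genes with more than 3 UMIs in the adult library of the pair. This left out *Mcm10* in both pairs. Replicate 1 over adult replicate 1 gave a ratio of 2.40 for the sum, with 36 of 42 genes above 1.5-fold. Replicate 2 over adult replicate 2 gave 1.02, with 18 of 40 above 1.5-fold and 13 below 1. These counts were not set against all genes. The *E2f1* ratio was 27.2 and 11.8 in these pairs, that of *Rrm2* 18.4 and 8.09, that of *Mcm5* 6.66 and 1.69, and that of *Pcna* 3.38 and 1.24. Each pair is 1 library against 1, so that no test was made within a label. With the study label as a covariate in the fit, the count at 3 weeks against adult was again 28, beside 18.2% of all genes in that fit. The count at 1 week rose from 5 to 10, beside 14.8% of all genes.

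The 1-week libraries held 812 and 300 UMIs of all 44 genes together, 15 genes had under 3 UMIs in replicate 2 and 6 had none. Against 1 day, 3 genes were called lower (*Rfc5*, *Tyms* and *Pold2*) and 0 higher, where 5.25% of all genes were called lower and 4.91% higher. At an unadjusted p under 0.05 there were 9 lower and 0 higher, by DESeq2 6 and 0, and with the replicate block 1 lower. *Rfc5*, a clamp loader subunit, was at 9.74 and 13.5 CPM in the adult libraries, 19.9 and 30.1 at 1 day, 4.94 and 7.68 at 1 week, 25.2 and 13.7 at 3 weeks and 17 and 21.4 *in vitro*, and its 1-week libraries were below all others. The calls of *Rfc5*, *Tyms* and *Pold2* were lost under 7, 9 and 5 alternatives. Leaving out a library moved this count of 3 to 2 (1-day replicate 1 or either adult library), 1 (1-week replicate 2), 0 (1-day replicate 2 or 1-week replicate 1), 7 (3-week replicate 1) or 6 (3-week replicate 2).

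Within the slices, the comparison of 3 weeks with 1 day asked whether the replication genes moved back over time in culture. Only *Orc6* was called lower at 3 weeks (-0.77 ± 0.23 SE, edgeR adjusted p = 0.0308) and 0 were called higher (1 at an unadjusted p under 0.05, 0 by DESeq2), with 12.8% and 13.9% of all genes called lower and higher. The median log2 change of the 44 genes was -0.32. The count differed between the 3-week libraries and became 24 without replicate 1, led by *Uhrf1*, *Mcm5* and *Dut* at -1.78, -1.67 and -1.61, and 0 without replicate 2. It was also 0 without 1-day replicate 2 or either *in vitro* library, and 4 with the study label as a covariate.

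As a share of all UMIs, *in vitro* microglia carried fewer replication transcripts than slice microglia at 1 day, with both sums (763 and 838 CPM) below both 1-day sums (1122 and 1545 CPM). Per cell and without scaling, the 44 genes gave 9.83 and 11.1 UMIs *in vitro* and 8.26 and 14.8 at 1 day, and these overlapped. In adult cells they gave 2.13 and 1.63 UMIs. Median depths were 3257 and 1858 UMIs per cell in adult and 12858 and 13966 *in vitro*. 17 of the 44 genes were called lower *in vitro* and 1 higher, beside 18.6% and 13.3% of all genes. The largest were *Orc1* (-2.41 ± 0.62 SE, edgeR adjusted p = 0.012), *Rrm2* (-2.30 ± 0.50 SE, edgeR adjusted p = 0.00521) and *Uhrf1* (-1.70 ± 0.43 SE, edgeR adjusted p = 0.0115), and 7 of the 17 belonged to origin licensing. The gene called higher was *Dnmt1* (0.90 ± 0.26 SE, edgeR adjusted p = 0.0213). *E2f1* did not pass the test here (0.12 ± 0.28 SE). The 17 fell to 2 without *in vitro* replicate 1, 6 without *in vitro* replicate 2 and 2 without 1-day replicate 2.

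Against slice microglia at 3 weeks, 7 genes were called lower *in vitro* (*Rrm2*, *Clspn*, *Cdc45*, *Tyms*, *Mcm3*, *Orc6* and *Pold2*) and 0 higher (1 at an unadjusted p under 0.05, 0 by DESeq2), where 19.9% and 13.3% of all genes were called lower and higher. *Rrm2* differed by -1.87 ± 0.49 (log2, SE, edgeR adjusted p = 0.0127), *Clspn* by -1.53 ± 0.42 (edgeR adjusted p = 0.0166) and *Cdc45* by -1.51 ± 0.49 (edgeR adjusted p = 0.033). The lower count was at about the share seen over all genes, became 0 with the study label as a covariate, and ranged from 0 without 3-week replicate 1 to 20 without 3-week replicate 2. The calls of *Mcm3*, *Orc6* and *Pold2* were lost under 13, 14 and 15 alternatives. The count was 0 and 1 without *in vitro* replicates 1 and 2, and 4 without adult replicate 1 or either 1-week library.

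A further 50 genes of replication and its repair, outside the 44, were counted in the same fit. They were called higher and lower in 30 and 2 at 1 day, 25 and 3 at 3 weeks, 18 and 6 *in vitro* and 8 and 4 at 1 week, all against adult. Of all genes, 24.9% and 25.3% were called higher and lower at 1 day, 17.9% and 17.5% at 3 weeks, 22.4% and 28.5% *in vitro* and 15.0% and 13.6% at 1 week, so that the 8 higher at 1 week were at about the share of all genes. The medians of the 50 were 1.02, 1.00, 0.60 and 0.32 on the log2 scale. *Brip1*, a helicase of fork repair, rose by 3.09 ± 0.57 *in vitro* (edgeR adjusted p = 0.00134) and 3.56 ± 0.61 at 1 day (edgeR adjusted p = 0.000912). *Recql4*, another helicase, was called higher at 1 day (edgeR adjusted p = 0.00675), with 0.146 and 0 CPM in adult and 1.31 and 1.44 at 1 day, and no fold is given because the adult values lie under the level of 3 UMIs. *Cdca7*, which takes part in maintaining DNA methylation, was at 24.8 and 24 CPM in the adult libraries, 12.1 and 16.8 at 1 day, 8.89 and 5.12 at 1 week, 10.2 and 5.36 at 3 weeks and 2.54 and 1.96 *in vitro*. Its adult libraries were the highest, and it fell *in vitro* by 3.43 on the log2 scale (edgeR adjusted p = 8.37e-06). *Samhd1*, which breaks down the nucleotides that the reductase supplies, was at 54.5 and 54.5 CPM in the adult libraries, 109 and 100.1 at 1 day, 76.1 and 56.3 at 1 week, 36 and 38.8 at 3 weeks and 117 and 105 *in vitro*. Its *in vitro* and 1-day libraries were above all others, with changes of 1.02 ± 0.14 (log2, SE, edgeR adjusted p = 0.000159) and 0.94 ± 0.15 (edgeR adjusted p = 0.000367) against adult, and its 3-week values were the lowest.

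The 25 genes of mitosis, none of which is among the 44, moved further. All 25 were called higher *in vitro*, at 1 day and at 3 weeks against adult, and 15 at 1 week, with medians of 3.63, 3.24, 3.37 and 2.84 (log2). *Mki67*, the proliferation marker, was at 1.98 and 1.67 CPM in the adult libraries, 9.44 and 19.8 at 1 day, 20.8 and 30.7 at 1 week, 35.8 and 40.2 at 3 weeks and 20.8 and 30.6 *in vitro*. *Top2a*, the topoisomerase that untangles sister chromatids, was at 4.83 and 3.61 CPM in the adult libraries, 16.5 and 38 at 1 day, 10.9 and 7.68 at 1 week, 68.8 and 53 at 3 weeks and 19.5 and 29.7 *in vitro*. For both genes every culture library was above both adult ones. The summed CPM of the 44 replication genes was 8.75 and 12.1 times that of the mitosis list in adult, 2.08 and 2.15 times at 1 day, 2.11 and 1.16 at 1 week, 1.74 and 1.43 at 3 weeks and 1.12 and 0.79 *in vitro*. Both *in vitro* libraries had the lowest such ratios and both adult ones the highest. The ratios are compared only across libraries, and their size does not rank the lists within a library.

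To see how the transcripts were spread over single cells, every cell was thinned at random to 1000 UMIs, which left out 66 and 205 adult cells and 2 cells of 1-week replicate 2 as too shallow. Cells with at least 5 of 1000 UMIs from the 44 genes, a cut in a continuous range and not a cell type, made up 0.188 and 0.903% in adult, 4.83 and 7.4% at 1 day, 1.35 and 3.39% at 1 week, 7.72 and 2.06% at 3 weeks and 1.08 and 1.16% *in vitro*. These were 7 of 3733 and 30 of 3322 adult cells, 25 of 518 and 75 of 1014 at 1 day, 2 of 148 and 2 of 59 at 1 week, 89 of 1153 and 77 of 3740 at 3 weeks and 26 of 2417 and 31 of 2682 *in vitro*. The 1-day and 3-week libraries were above the adult and *in vitro* ones, and the *in vitro* shares were just above the higher adult share. Exact 95% binomial intervals, which cover counting error only, ran from 0.61 to 1.29% for adult replicate 2, 0.787 to 1.64% for *in vitro* replicate 2 and 1.63 to 2.57% for 3-week replicate 2, so that the interval of the 3-week library lay above the adult one and overlapped the *in vitro* one at its edge. In the neutrophil-marked cells the share was 0 of 68 in 1-day replicate 1, 5 of 110 (4.55%) in 1-day replicate 2 and 2 of 24 (8.33%) in 1-week replicate 1. For the 0 of 68, 3 cells (4.41%) were taken as a rough upper limit, which is not an exact interval. Median depths were 2224, 4925 and 4490.5 UMIs in the marked cells against 6986, 8868 and 7292 in the other cells. Of these marked cells 2, 24 and 5 held a mitosis-list UMI. The group means were 0.545 ± 0.506% in adult, 6.11 ± 1.82% at 1 day, 2.37 ± 1.44% at 1 week, 4.89 ± 4.0% at 3 weeks and 1.12 ± 0.0567% *in vitro* (SD, n = 2), and were not tested, for the reason given above.

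Without thinning, the shares with at least 5 UMIs were 7.9 and 4.97% in adult and 70.9 and 73.3% *in vitro*, beside median depths of 3257 and 1858 UMIs in adult and 12858 and 13966 *in vitro*. Between 39.1% and 62.7% of thinned cells held none of the 44 genes' UMIs. Cells past the cut gave 31.2 and 33.7% of the replication UMIs at 1 day, 39.6 and 19.3% at 3 weeks, 10.8 and 12.2% *in vitro* and 2.39 and 7.19% in adult. The number just inside and just outside the cut, with 4 or 5 UMIs, was 65 in 3-week replicate 1 and 35 in *in vitro* replicate 2, beside 89 and 31 cells past it. Without the neutrophil-marked cells the shares were 5.56 and 7.74% at 1 day, and at 1 week 0 of 124 cells in replicate 1 and 2 of 58 in replicate 2 (3.45%). For the 0 of 124, 3 cells (2.42%) were again taken as a rough upper limit.

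**Figure D4:**
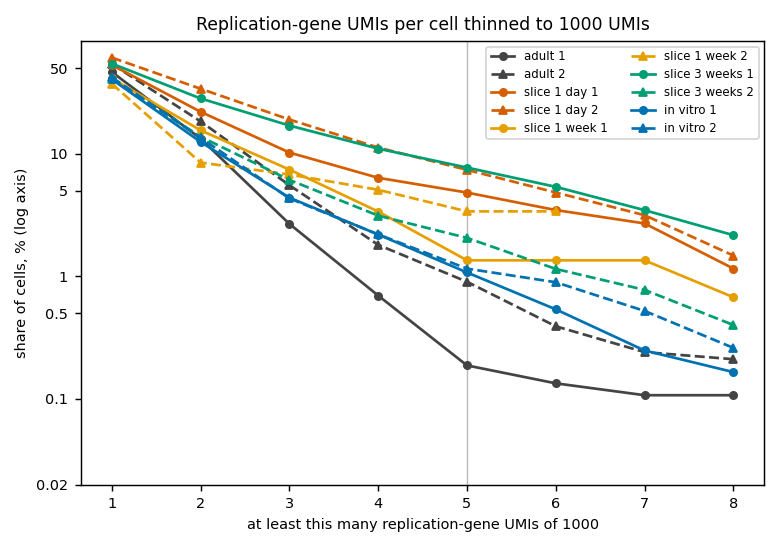
Share of thinned cells (vertical log axis, percent) with at least the number of replication-gene UMIs on the horizontal axis, for each library, with solid lines for replicate 1, dashed lines for replicate 2 and a grey line at the cut of 5. Zeros are not drawn. At 5 UMIs both 1-day libraries and 3-week replicate 1 lie between 4.83% and 7.72%, and both *in vitro* libraries lie at 1.08 and 1.16%, next to adult replicate 2.

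Cells with at least 1 UMI of the mitosis list among their 1000 were compared with the remaining cells of the same library. They made up 2.25 and 1.84% of thinned cells in adult, 16.8 and 29.4% at 1 day, 23.6 and 18.6% at 1 week, 19.6 and 12% at 3 weeks and 18 and 25.5% *in vitro*. Such cells held 1.12 and 1.61 replication UMIs of 1000 on average in adult, 2.39 and 2.32 at 1 day, 2.72 and 1.61 at 3 weeks and 0.959 and 1.04 *in vitro*. This was 1.76 to 3.06 times the level of the remaining cells over the 8 libraries with at least 50 cells of each kind, lowest in adult and *in vitro* (1.76 to 2.00 times) and higher in every 1-day and 3-week library (2.15 to 3.06 times). The classes are cells of the same libraries and not replicates, and these folds carry no test. They rest on 1 UMI of 1000, so that dividing cells without such a UMI fall among the remaining cells, and the part of free RNA was not tested.

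Single genes differed widely in this respect. Over the 6 culture libraries with enough cells, 30 genes had more than 3 UMIs in both classes in at least 5 libraries, and the median of their folds was 2.58. *Tk1* had a median fold of 11.3 (5.11 to 29.3 over 5 libraries), *Rrm1* 5.93 (3.24 to 6.6 over 6 libraries) and *Tyms* 4.48 (2.4 to 13.7 over 6 libraries). At the other end stood *Dnmt1* at 0.854 (0.801 to 4.71 over 5 libraries), *Pold2* at 1.0 (0.801 to 1.98 over 6 libraries) and *E2f1* at 1.07 (0.618 to 1.33 over 5 libraries). The *Dnmt1* folds differed by group, at 0.854 and 0.813 *in vitro* and 0.801 in 1-day replicate 2, but 2.46 and 4.71 at 3 weeks. The largest fold was that of *Rrm2*, 13.2 (4.68 to 46.1 over 4 libraries). In 23 of the 30 genes every library gave a fold above 1, and 14 genes had too few UMIs in 2 or more libraries.

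**Figure D5:**
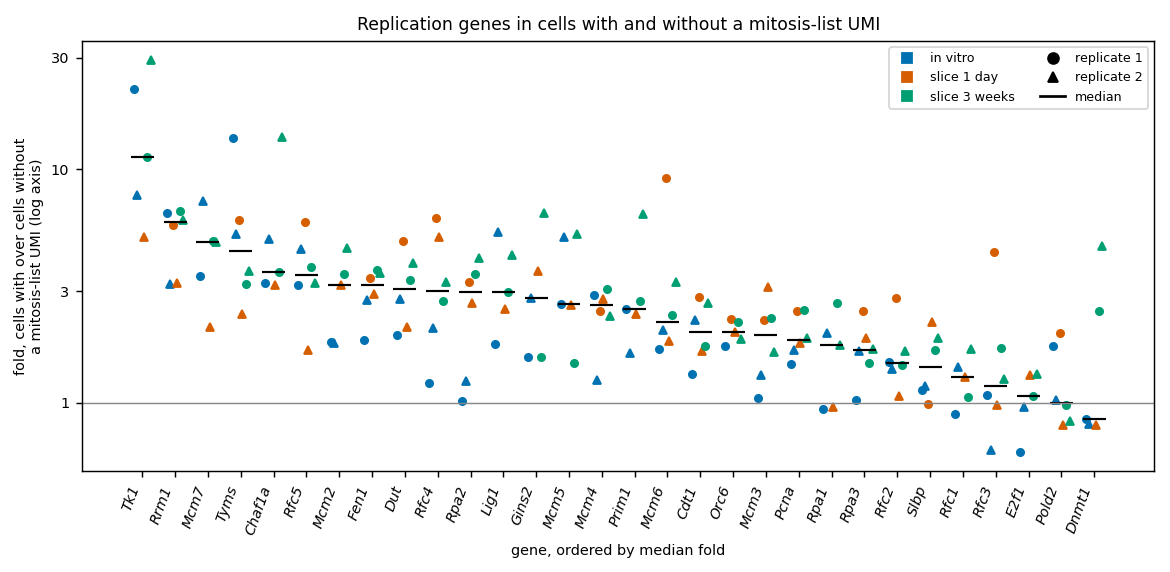
Fold of each replication gene between cells with and cells without a mitosis-list UMI (vertical log axis), for 30 genes ordered by their median (horizontal axis), with colours for *in vitro*, 1-day and 3-week libraries, symbols for the replicate and a line at the median. *Tk1* and *Rrm1* lie at the left with medians of 11.3 and 5.93, and *E2f1*, *Pold2* and *Dnmt1* at the right with medians around 1. The 3-week points of *Dnmt1* lie higher, at 2.46 and 4.71.

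When the comparisons with adult were repeated on cells without any mitosis-list UMI, 39 of the 44 genes passed the filter. The counts called higher and lower were then 10 and 3 at 1 day, 6 and 5 at 3 weeks, 8 and 7 *in vitro* and 1 and 2 at 1 week. In the same fit the shares of all genes called higher and lower were 20.6% and 22.8% at 1 day, 15.6% and 17.6% at 3 weeks, 19.4% and 27.5% *in vitro* and 10.6% and 10.1% at 1 week. Thus 8 of 39 higher *in vitro* and 6 of 39 higher at 3 weeks were near the shares of all genes. The 10 of 39 higher at 1 day were only a little above the share there, and the 1 of 39 at 1 week was below it. *E2f1* was at 4.42 *in vitro*, 3.98 at 1 day, 4.18 at 1 week and 4.31 at 3 weeks on the log2 scale, against 4.09, 3.96, 3.86 and 4.24 over all cells, and was called in all 4. *Chaf1a* and *Chaf1b* were called *in vitro*, at 1 day and at 3 weeks, with *Chaf1a* at 3.07, 3.73 and 3.41. Of the 39 genes tested, 37 had a smaller or more negative change than over all cells *in vitro*, 37 at 1 day, 29 at 1 week and 38 at 3 weeks. *Rrm2* stayed called higher *in vitro*, at 1 day and at 3 weeks, and its change grew from 1.87 to 3.28 *in vitro* and from 4.16 to 5.11 at 1 day, but it rested there on 4 and 0 adult UMIs against 12 and 12 *in vitro* and 4 and 21 at 1 day. The change of *Rrm1* at 1 day went from 1.48 to 0.12 and that of *Mcm2* from 1.97 to 0.50, and *Slbp* and *Pold2* were called lower in all 4. This choice of cells moves with depth, since a cell with more UMIs is more likely to show 1 from the list, and it removed 74.4 and 83.2% of *in vitro* cells against 6.69 and 3.77% of adult cells.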

How the data were processed

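The authors aligned the 10x reads to mm10 with Cell Ranger 1.3.0, per the submitters' processing notes, and deposited raw UMI counts (genes by barcodes, 1 table a library). Cells were kept at up to 5% mitochondrial UMIs, at least 400 genes and up to 30000 UMIs, 13 duplicated symbols were summed, and no doublet caller was run. UMIs were summed per library and tested with edgeR 4.0.16 (quasi-likelihood, TMM, filterByExpr with a minimum count of 10) in R 4.3.3, all 10 libraries in 1 fit of 5 groups, with Benjamini-Hochberg adjustment over 12157 genes. DESeq2 1.42.0, other scalings, filters and covariates, and leaving out each library were the alternatives, and the one without neutrophil-marked cells was added after seeing the data. Named genes were the 2 highest of each role and the 3 largest changes called per comparison. One gene that this rule names is not reported here. Others were named after their values were seen: *Mcm2*, *Mcm4*, *Mcm5*, *Mcm7*, *Cdc6*, *Cdt1*, *Pola1*, *Pole*, *Prim1*, *Prim2*, *Pold1*, *Rfc1*, *Rfc3*, *Rfc4*, *Tk1*, *Dut*, *Samhd1*, *Mki67* and *Top2a*. The members and lists were chosen with earlier results of these data known.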

Additional observations from a re-analysis of the deposited data

How the results depend on the processing

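The limits are 2 libraries a group, the small 1-week libraries, and means of 0.619 to 1.44 UMIs of the 44 genes per thinned cell. Of 116 calls on single genes, 2301 values under the alternatives gave 1927 that kept the call, 366 that lost it and 8 that changed direction. An analysis without cells holding UMIs of other cell types' markers could not be run, because 0 cells remained in 2 libraries. The cause of the changes was not tested.

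Higher calls against adult *in vitro* were 12 with library size alone, 8 without mitosis-UMI cells and 10 to 25 leaving out a library. At 1 day they were 10 without mitosis-UMI cells and 20 to 33 leaving out a library, and at 3 weeks 6 and 11 to 33. At 1 week they were 12 by DESeq2, 17 without a filter, 1 thinned, 10 with the study label, 1 without mitosis-UMI cells, 2 without neutrophil-marked cells and 1 to 9 leaving out a library. Lower calls *in vitro* against adult were 5 with library size alone, 7 without mitosis-UMI cells and 2 to 3 leaving out a library. *In vitro* against 1 day, higher calls were 0 thinned and 0 to 1 leaving out a library, and lower calls 11 on all barcodes, 11 thinned, 4 without mitosis-UMI cells and 2 to 22. *In vitro* against 3 weeks, higher calls were 1 without a filter, 1 on all barcodes, 1 without mitosis-UMI cells and 0 to 3, and lower calls 4 by DESeq2, 1 on all barcodes, 4 thinned, 0 with the study label, 2 without mitosis-UMI cells and 0 to 20. Lower calls at 1 week against 1 day were 6 by DESeq2, 15 without a filter, 0 thinned, 0 without mitosis-UMI cells, 6 without neutrophil-marked cells and 0 to 7. At 3 weeks against 1 day they were 6 without a filter, 2 thinned, 4 with the study label and 0 to 24.

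Deviations of replicate 1 from its group mean of log CPM correlated between groups at -0.146 to 0.237, over 7953 genes. These correlations do not show that the replicate numbers pair libraries. With the replicate block, higher calls against adult were 17 *in vitro*, 31 at 1 day, 3 at 1 week and 26 at 3 weeks, and lower calls 4 *in vitro* against 3 weeks, 16 *in vitro* against 1 day, 1 at 3 weeks against 1 day and 1 at 1 week against 1 day.

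The share of cells past the cut was, with a cut of 3, without thinning and leaving out a library, 4.11, 6.43 and 0.188 to 0.903% in adult, 4.36, 72.1 and 1.08 to 1.16% *in vitro*, 14.6, 59.5 and 4.83 to 7.40% at 1 day, 7.11, 37.2 and 1.35 to 3.39% at 1 week and 11.6, 36.5 and 2.06 to 7.72% at 3 weeks. *In vitro* it was also 1.63% on all barcodes and 1.21% with another seed. Without mitosis-UMI cells the log2 change turned to -0.071 for *Rrm1* *in vitro*, -0.17 for *Mcm4*, -0.20 for *Pola1* and -0.11 for *Tyms* at 1 day, and -0.16 for *Dut*, -0.071 for *Orc6* and -0.10 for *Tyms* at 3 weeks. Thinned, *Chaf1a* at 1 week turned to -3.63.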
